A study of Mus musculus with 6 samples.

Results

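Ribosome biogenesis and nucleolar genes were examined in activated mouse CD8+ T cells as a set of 44 genes, named from knowledge of the pathway and found by symbol in a table of 18122 gene rows. All 44 were present and all had a mean of at least 1 FPKM (read fragments divided by gene length and by the library's mapped fragments) over the 6 libraries, so none was lost to the filter on low values. They comprised 5 genes of RNA polymerase I and its regulators, 8 of the small nucleolar ribonucleoprotein (snoRNP) core and its assembly, 5 nucleolar chaperones and multifunctional proteins, 14 processing factors of the small ribosomal subunit and 12 of the large subunit. The rule used no measured difference, but the genes were proposed with earlier results of these data known.

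Ribosomes are built in the nucleolus, where RNA polymerase I transcribes the long precursor of the ribosomal RNAs. Box C/D snoRNPs methylate this precursor and box H/ACA snoRNPs convert selected uridines to pseudouridine, while processing factors fold it, cut it and load ribosomal proteins on the nascent small and large subunits. T cells are known to enlarge their nucleoli and raise ribosome production after activation, and many of these genes are known targets of Myc.

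The libraries were bulk RNA-seq of lymph-node CD8+ T cells from wild-type (WT) mice and from mice labelled Dusp2-/- (here Dusp2KO), which lack the nuclear MAP kinase phosphatase Dusp2. Every culture had been stimulated for 18 h on plate-coated anti-CD3 (1 µg/mL) together with IL-4 at 20 ng/mL, IFN-α at 50 ng/mL and the costimulatory antibody anti-CD28 at 1 µg/mL, so no unstimulated cells were in the comparison. Cells were sorted into a CD44 super-high fraction (CD44hi, 2 libraries per genotype) and a CD44 low fraction (CD44lo, 1 library per genotype), both labelled Tvm. The labels do not say whether the CD44hi pairs came from separate mice or cultures, so p-values measure the spread between these libraries only.

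The text on treatment names Cd4-Cre Rpa1fl/fl mice in place of Dusp2-/- mice, and a description field names 10X Genomics. The targeted gene, Dusp2, had 82.6 and 83.9 FPKM in WT CD44hi, 116 FPKM in WT CD44lo, and between 0 and 0.0283 FPKM in the 3 Dusp2KO libraries, while Rpa1 was present in all 6 at 27.4 to 41.4 FPKM. Cd44 was at 65.3 to 79.9 FPKM in CD44hi and at 1.33 and 1.43 FPKM in CD44lo, and Cd8a was at 246 to 358 FPKM. Cd3e was lower in Dusp2KO CD44hi (51.7 and 53.5 FPKM) than in WT CD44hi (88.6 and 76.9 FPKM), with 81.7 and 69.9 FPKM in WT and Dusp2KO CD44lo. Cd3d had 173.9 and 157.5 FPKM in WT CD44hi and 125.9 and 124.8 FPKM in Dusp2KO CD44hi, with 171.7 and 164.2 FPKM in WT and Dusp2KO CD44lo. Cd8b1 had 386.1 and 356.6 FPKM in WT CD44hi and 384.4 and 409.1 FPKM in Dusp2KO CD44hi, with 523.2 and 605.4 FPKM in WT and Dusp2KO CD44lo. Of the markers listed for other cells, Cd4, Foxp3, Cd79a, Lyz2, Itgam, Klrb1c and Hba-a1 were at most 0.379 FPKM. Ctla4, listed for CD4 and regulatory T cells, was at 2.82 to 7.21 FPKM, Cst3, listed for myeloid cells, at 24.7 to 32.2 FPKM and Eomes, listed for NK cells, at 66.3 to 92.3 FPKM. Activated CD8+ T cells are known to express Ctla4 and Eomes too. Cd3e, Cd3d and Ctla4 were thus lower in Dusp2KO than in WT in both fractions, whereas Cd8b1 was not. The part of these markers in the results below was not tested. Whole reads recovered from the FPKM steps came to 42816073 to 55830235 in 5 libraries and 23490008 in the Dusp2KO CD44lo library. That library also had the highest share of mitochondrial reads, 3.79%, against 2.03% and 2.15% in WT CD44hi, 2.73% and 2.94% in Dusp2KO CD44hi and 2.56% in WT CD44lo. Between 866 and 235407 recovered reads stood behind each member's value. In bulk libraries, fewer cells of a kind and less RNA per cell cannot be told apart.

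The 44 genes spanned a wide range of levels, from Npm1 at a mean of 1161 FPKM, the histone chaperone nucleophosmin, to Wdr12 at 11.3 FPKM, a subunit of the large-subunit PeBoW complex. Together they took 1.72% and 1.77% of recovered reads in the WT CD44hi libraries, 2.02% in each Dusp2KO CD44hi library and 1.7% in each CD44lo library. Without Npm1 and Ncl, the shares were 1.13% in both WT CD44hi libraries, 1.27% and 1.25% in Dusp2KO CD44hi, 1.07% in WT CD44lo and 1.08% in Dusp2KO CD44lo. The share was thus higher in both Dusp2KO CD44hi libraries than in the other 4. The plot of levels shows that within a gene the 6 libraries lay close together compared with the differences between genes.

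**Figure D1:**
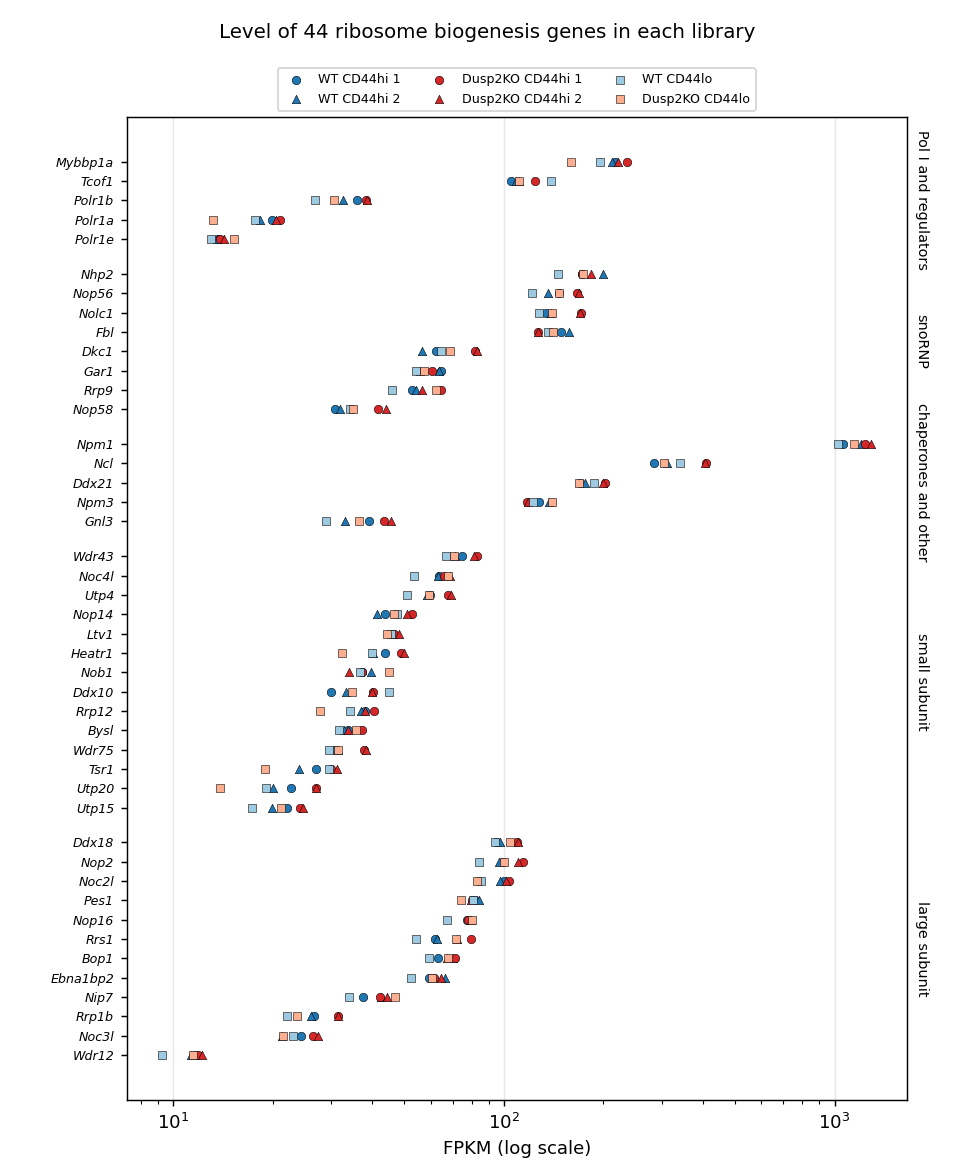
Level of each of the 44 genes in each library, in FPKM on a log scale, grouped by role, with 1 point per library. Npm1, at a mean of 1161 FPKM, lies far above the rest and Wdr12, at 11.3 FPKM, is the lowest.

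The first comparison asked how loss of Dusp2 was associated with these genes within the CD44hi fraction. Of the 44 genes, 14 rose in Dusp2KO (adjusted p under 0.05, limma with Benjamini-Hochberg adjustment over 9691 genes), 1 fell and 29 did not pass. Over all genes tested 12.9% rose and 13.8% fell, against 31.8% and 2.27% of the members. The rises were small, between 1.16-fold and 1.38-fold on the scale of FPKM + 1, and led by Dkc1, Ncl and Nop58. The median log2 difference of the members was 0.16 (range -0.27 to 0.46), beside -0.02 over all genes tested, and 38 of 44 were positive. Both Dusp2KO libraries lay above both WT libraries for 33 members (75%) and below them for 4 (9.09%), beside 32% and 36.2% of all genes tested. The same 38 genes were positive under quantile normalization, median-ratio scaling and rescaling to an equal total. These scalings moved the median over all genes only from -0.02 to between -0.01 and 0.02, so the 38 could hardly change. The number positive was 35 to 39 with 1 library left out. The number of calls rested on the pairs. It dropped without either Dusp2KO CD44hi library and grew without the first WT CD44hi library. The share of all genes tested that rose moved the same way. With 1 library left out, the members' median log2 difference was 0.15 to 0.19, beside -0.03 to 0.00 over all genes tested. With no filter on low values 0 members passed with limma, beside 0.00552% of all genes tested that rose. In that setting 21 members had an unadjusted limma p under 0.05 in either direction, beside 4678 of 18122 genes tested. Voom on recovered reads called 16 members higher, beside 15.5% of all genes tested.

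**Figure D2:**
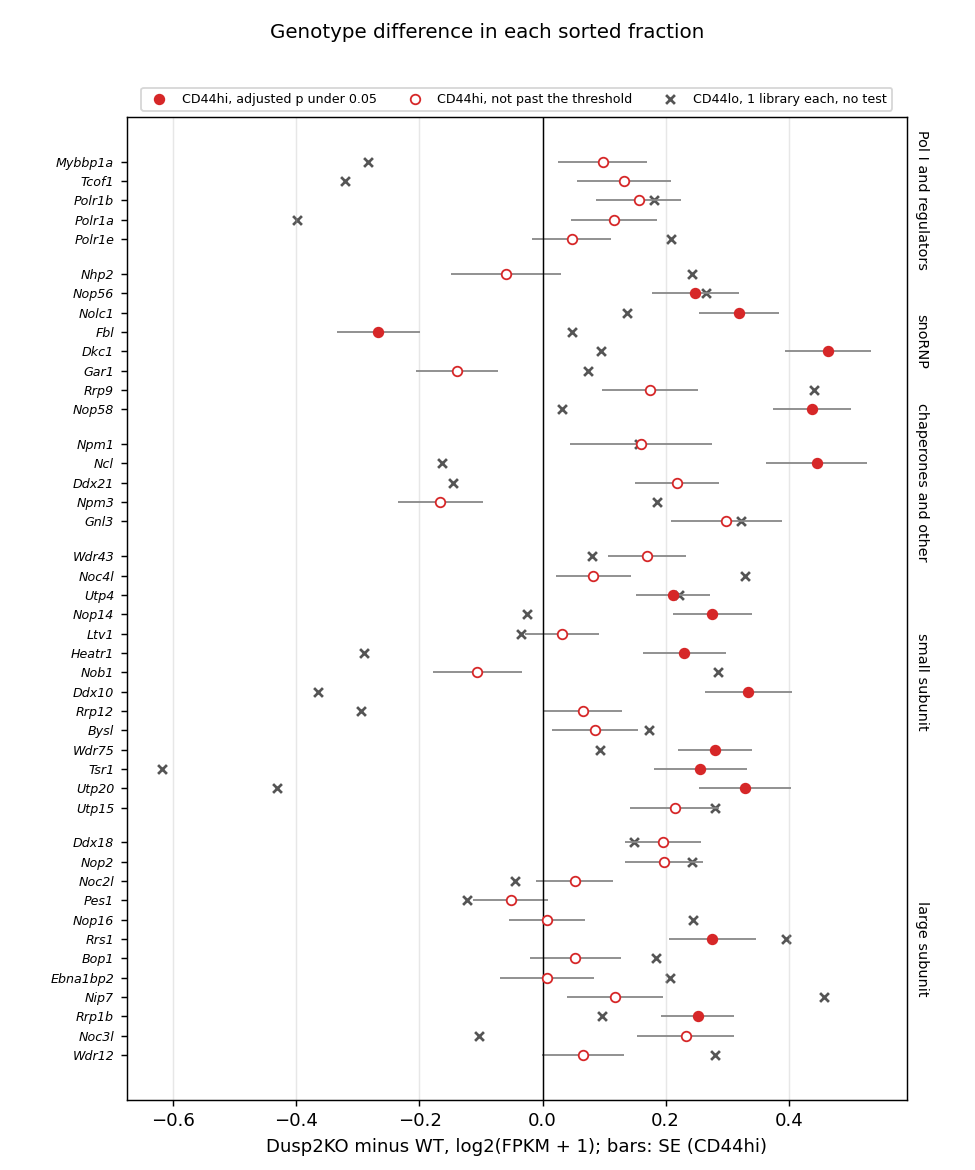
Difference between Dusp2KO and WT for each of the 44 genes on the log2(FPKM + 1) scale, in CD44hi with its standard error (2 libraries per genotype) and in CD44lo (1 library per genotype, no error). In CD44hi, 38 of 44 points lie above 0, whereas in CD44lo the points spread from -0.62 to 0.46.

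Dkc1, Ncl and Nop58 had the largest rises, and the 250 bases before each of their transcription starts are shown so that their promoters can be compared with those of other members that rose. Sequences are from RefSeq, build GRCm38.p6, which is not the build named for these data, and run 5′ to 3′ on the gene's strand. The start sites are those of RefSeq and were not measured here. The positions are chr1:59684756-59685005 (plus strand) for Nop58, chrX:75095604-75095853 (plus) for Dkc1 and chr1:86359456-86359705 (minus) for Ncl.
Nop58: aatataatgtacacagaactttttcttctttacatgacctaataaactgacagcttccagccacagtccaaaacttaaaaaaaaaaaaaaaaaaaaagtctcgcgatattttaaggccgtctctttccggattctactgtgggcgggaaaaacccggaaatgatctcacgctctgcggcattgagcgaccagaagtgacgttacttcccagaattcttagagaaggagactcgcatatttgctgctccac
Dkc1: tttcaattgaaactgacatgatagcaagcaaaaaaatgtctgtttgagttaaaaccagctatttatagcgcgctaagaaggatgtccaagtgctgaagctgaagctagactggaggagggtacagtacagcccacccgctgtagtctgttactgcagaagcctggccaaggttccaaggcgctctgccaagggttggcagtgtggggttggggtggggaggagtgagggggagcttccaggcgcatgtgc
Ncl: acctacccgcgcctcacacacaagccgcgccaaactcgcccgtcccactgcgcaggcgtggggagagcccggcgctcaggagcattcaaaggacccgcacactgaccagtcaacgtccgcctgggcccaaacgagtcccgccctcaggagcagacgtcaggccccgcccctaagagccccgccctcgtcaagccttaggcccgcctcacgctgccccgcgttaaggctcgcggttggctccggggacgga
These windows differed in base composition, with 41.2% G and C in Nop58, 52% in Dkc1 and 69.6% in Ncl. None of them held the Myc-type E-box CACGTG or the ETS-type letters CCGGAAG, read on both strands. The motifs do not overlap each other. Among the 42 promoter windows of the 38 members that matched the table, the E-box occurred in 1 (2.38%, that of Nop2), beside 6.02% of 32851 windows of all genes and 8.93% of the 9579 windows of genes tested. The ETS letters occurred in 9 windows (21.4%), beside 6.91% of all windows and 15.7% of those of genes tested.

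Of the 14 windows of members that rose, 4 (28.6%) held CCGGAAG, against 5 of 28 (17.9%) of the other members. These 4 are shown with 30 bases on either side where the window allows. Capitals mark the letters, which read CTTCCGG when they lie on the other strand. The stretches are chr19:46075803-46075846 (plus) for Nolc1, chr9:53248263-53248329 (minus) for Ddx10, chr8:106893567-106893639 (plus) for Utp4 and chr13:12395329-12395374 (plus) for Heatr1.
Nolc1: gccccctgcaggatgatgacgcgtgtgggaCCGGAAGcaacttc
Ddx10: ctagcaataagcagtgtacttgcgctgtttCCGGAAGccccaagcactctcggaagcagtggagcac
Utp4: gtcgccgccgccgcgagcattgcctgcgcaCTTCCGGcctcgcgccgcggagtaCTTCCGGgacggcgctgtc
Heatr1: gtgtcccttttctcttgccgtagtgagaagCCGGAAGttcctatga
The match lay 14 bases before the start in Nolc1, 187 in Ddx10 and 16 in Heatr1. Utp4 held it at 43 and at 19 bases before the start. A match describes letters in a window, and no binding was measured in these libraries.

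Among the genes of RNA polymerase I and its regulators, 0 of 5 passed with limma in CD44hi and 0 had an unadjusted p under 0.05, yet all 5 had both Dusp2KO libraries above both WT libraries. Their median log2 difference was 0.12. Polr1a, the largest subunit of the polymerase, had 19.9 and 18.3 FPKM in WT CD44hi and 21.1 and 20.5 FPKM in Dusp2KO CD44hi, a log2 difference of 0.12 (SE 0.0691, adjusted p = 0.251). The second largest subunit, Polr1b, had 36.0 and 32.7 FPKM in WT and 38.2 and 38.4 FPKM in Dusp2KO (0.16, adjusted p = 0.138). The groups were apart in both genes, but by less than the test required. Tcof1, the nucleolar protein treacle that aids transcription of ribosomal DNA, had 105 and 109 FPKM in WT and 124 and 111 FPKM in Dusp2KO (0.13, adjusted p = 0.238). Mybbp1a, a nucleolar regulator of ribosomal DNA transcription, had 216 and 212 FPKM in WT and 236 and 222 FPKM in Dusp2KO (0.10, adjusted p = 0.348). In Tcof1 and Mybbp1a the gap between the groups was narrow beside the spread within Dusp2KO. Polr1e had the smallest difference of the 5, 0.05.

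Of the 8 snoRNP genes, 4 rose and 1 fell, and these 5 included core proteins of both classes of particle. Nop58, a core box C/D protein, had 30.8 and 31.9 FPKM in WT CD44hi and 41.7 and 43.9 FPKM in Dusp2KO CD44hi, a rise of 0.44 on the log2 scale (SE 0.0632, adjusted p = 0.00588). Its partner in the same particle, Nop56, rose by 0.25 (SE 0.0706, adjusted p = 0.0432), from 146 and 136 FPKM to 166 and 169 FPKM. Fbl, the fibrillarin methyltransferase of that particle, was the single member that fell, with 149 and 157 FPKM in WT and 127 and 127 FPKM in Dusp2KO (log2 difference -0.27, SE 0.0673, adjusted p = 0.0309). The genes of these 3 proteins of one particle thus differed in direction, and in each the libraries of the genotypes did not overlap. Fbl did not pass under quantile normalization or median-ratio scaling, nor without either Dusp2KO CD44hi library.

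The box H/ACA genes also differed among themselves. Dkc1, the pseudouridine synthase dyskerin, had 62.4 and 56.6 FPKM in WT and 81.9 and 82.8 FPKM in Dusp2KO, the largest rise of the 44 at 0.46 (SE 0.0702, adjusted p = 0.00676). Its partner proteins Nhp2 and Gar1 did not pass. Nhp2 had 172 and 199 FPKM in WT and 173 and 183 FPKM in Dusp2KO, so the groups overlapped (log2 difference -0.06, adjusted p = 0.651). Gar1 had 64.4 and 63.5 FPKM in WT and 60.4 and 55.7 FPKM in Dusp2KO (-0.14, adjusted p = 0.167), with both Dusp2KO libraries lower. Nolc1, the snoRNP chaperone Nopp140, rose from 134 and 138 FPKM to 171 and 169.9 FPKM (0.32, SE 0.0650, adjusted p = 0.0170). Rrp9, a protein of the U3 box C/D particle, had a log2 difference of 0.17 (adjusted p = 0.142).

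Of the 5 nucleolar chaperones and multifunctional proteins, Ncl alone passed. Ncl, which encodes nucleolin, an abundant RNA-binding protein of the nucleolus, had 285 and 311 FPKM in WT CD44hi and 408 and 404 FPKM in Dusp2KO CD44hi (0.45, SE 0.0820, adjusted p = 0.0125). Npm1 had 1061 and 1206 FPKM in WT and 1235 and 1292 FPKM in Dusp2KO, a difference of 0.16 that was no larger than the spread within WT (adjusted p = 0.336). These, the most abundant of the 44, did not overlap between the genotypes, but only Ncl was separated well beyond the spread of the pairs. Ddx21, an RNA helicase, had 169.7 and 176 FPKM in WT and 203 and 199 FPKM in Dusp2KO (0.22, adjusted p = 0.0551). Gnl3, the GTP-binding protein nucleostemin, had 39.1 and 32.9 FPKM in WT and 43.4 and 45.4 FPKM in Dusp2KO (0.30, adjusted p = 0.0510). Both missed the threshold narrowly. Npm3, a small relative of Npm1, had a log2 difference of -0.17 (adjusted p = 0.119) with both Dusp2KO libraries lower.

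Small-subunit factors held the largest number of rises, 7 of 14, with a median log2 difference of 0.21. Both Dusp2KO libraries were above both WT libraries in 12 of them. The rises were Utp20 (22.6 and 20.1 FPKM in WT CD44hi and 27.0 and 27.1 FPKM in Dusp2KO CD44hi), Ddx10, Wdr75, Nop14, Tsr1, Heatr1 and Utp4. Utp20, a large scaffold protein of the early small-subunit particle, rose by 0.33 (SE 0.0750, adjusted p = 0.0231). Ddx10, an RNA helicase, had 29.99 and 33.3 FPKM in WT and 40.3 and 39.9 FPKM in Dusp2KO, a rise of 0.33 (SE 0.0708, adjusted p = 0.0189). Wdr75, a subunit of the UtpA complex that binds the nascent precursor first, had 30.8 and 31.5 FPKM in WT and 37.8 and 38.3 FPKM in Dusp2KO (0.28, adjusted p = 0.0189). In these 3 genes the groups did not overlap, although the WT libraries of Utp20 and Ddx10 lay further apart than their Dusp2KO libraries. Heatr1 and Utp4, also of UtpA, rose by 0.23 and 0.21, with adjusted p-values of 0.0474 and 0.0428. Utp15, another UtpA subunit, had 22.002 and 19.8 FPKM in WT and 24.1 and 24.6 FPKM in Dusp2KO (0.22, adjusted p = 0.0697), and Wdr43 was at 0.17 (adjusted p = 0.0915), so both were positive and did not pass.

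Tsr1, a GTPase-like factor of the late particle, had 26.9 and 24.05 FPKM in WT and 29.9 and 31.3 FPKM in Dusp2KO (0.26, adjusted p = 0.0471). Nob1, the endonuclease of the last cut of the small-subunit RNA, had 37.2 and 39.7 FPKM in WT and 37.2 and 34.1 FPKM in Dusp2KO, the one negative difference of the 14 (-0.11, adjusted p = 0.310), and the groups overlapped. Noc4l, which works with Nop14, had 63.7 and 63.2 FPKM in WT and 66.0 and 68.5 FPKM in Dusp2KO (0.08, adjusted p = 0.345), whereas Nop14 rose by 0.28 (adjusted p = 0.0245). The export and maturation factors Bysl and Ltv1 had log2 differences of 0.09 and 0.03, and Rrp12 had 0.07.

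Of the 12 large-subunit factors 2 rose, Rrs1 and Rrp1b, and the median log2 difference was 0.09. Rrs1, an assembly factor of the early large subunit, had 61.9 and 62.6 FPKM in WT CD44hi and 79.4 and 72.0 FPKM in Dusp2KO CD44hi (0.28, SE 0.0706, adjusted p = 0.0322). Rrp1b, a nucleolar processing protein, had 26.5 and 26.1 FPKM in WT and 31.5 and 31.5 FPKM in Dusp2KO (0.25, SE 0.0594, adjusted p = 0.0253). Ddx18, an RNA helicase, had 94.8 and 97.3 FPKM in WT and 109.8 and 111 FPKM in Dusp2KO and missed the threshold (0.20, adjusted p = 0.0587). The 3 subunits of PeBoW, Pes1, Bop1 and Wdr12, had log2 differences of -0.05, 0.05 and 0.07, and none passed. Nop16 and Ebna1bp2 were each at 0.01, Noc2l was at 0.05, and Nip7, Nop2 and Noc3l were at 0.12, 0.20 and 0.23.

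In the CD44lo fraction, where 1 library stood for each genotype, the differences were described without a test. Of the 44 genes, 9 were higher in Dusp2KO by at least 0.25 on the log2 scale, a limit chosen after the values were seen, and 8 were lower. Over all genes tested these shares were 17% and 21.4%, beside 20.5% and 18.2% of the members. The median of the members was 0.12 beside -0.01 over all genes tested, with 29 positive and 15 negative. Rescaling each library to an equal total moved the median over all genes to -0.11 and made 22 members positive and 22 negative. On either scale 29 of 44 stood above the median of all genes. Rescaling shifts nearly all genes alike, so that number could hardly change. Of the 14 members that rose in CD44hi, 8 (57.1%) were also positive in CD44lo, beside 66.9% of the 1248 genes that rose in CD44hi over the whole table.

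All 8 snoRNP genes were positive in CD44lo, but 4 of 8 on rescaled totals. On the deposited scale they ran from 0.03 in Nop58 to 0.44 in Rrp9, and Fbl, which fell in CD44hi, had 136 FPKM in WT and 141 FPKM in Dusp2KO. Dkc1 had 64.3 FPKM in WT and 68.7 FPKM in Dusp2KO, Nolc1 127 and 140.2 FPKM, and Nhp2 146 and 173 FPKM. Of the 5 polymerase I genes, 3 were lower by at least 0.25 and 2 were positive, whereas 9 of the 13 other polymerase I genes of the extended list were positive. Polr1a had 17.7 FPKM in WT and 13.2 FPKM in Dusp2KO (-0.40), Tcof1 had 139 and 111 FPKM, and Mybbp1a had 195 and 159.7 FPKM. Of the small-subunit factors 5 were lower and 3 higher by that limit. The lower ones were Tsr1 (29.6 FPKM in WT and 18.9 FPKM in Dusp2KO, -0.62), Utp20 (19.1 and 13.9 FPKM, -0.43), Ddx10, Heatr1 and Rrp12. The higher ones were Noc4l, Nob1 and Utp15. Large-subunit factors had 3 higher and none lower, among them Rrs1 with 54.3 FPKM in WT and 71.7 FPKM in Dusp2KO.

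Gene length moved with these differences, in opposite directions in the sorted fractions. The lengths implied by the FPKM steps ran from 1163 bp for Nhp2 to 12134 bp for Wdr12 and included 10340 bp for Ncl, 10351 bp for Utp20, 10919 bp for Nop58 and 12048 bp for Polr1a. Over the 44 genes, Spearman's rank correlation between length and the genotype difference was 0.38 in CD44hi and -0.31 in CD44lo, beside 0.27 and -0.33 over the 9691 genes tested. These correlations are across genes that share the same libraries and are descriptions only. In the 5 shortest members the median difference was -0.06 in CD44hi and 0.19 in CD44lo, and in the 5 longest it was 0.33 and -0.16. Over all genes tested the difference between the WT CD44hi libraries also correlated with length (rank correlation 0.32), whereas that between the Dusp2KO CD44hi libraries did not (0.00). With a trend on length removed from each library, 16 members rose in CD44hi, and Rrp1b (0.20, adjusted p = 0.0567) and Heatr1 (0.17, adjusted p = 0.0760) no longer passed. The part of length or RNA quality in the remaining differences was not tested.

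**Figure D3:**
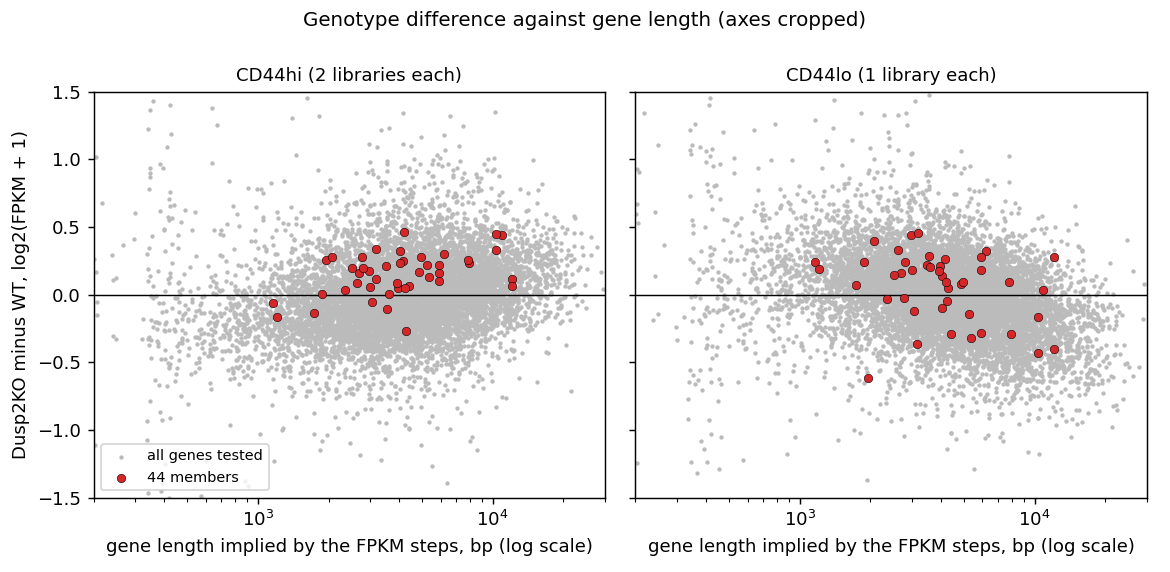
Genotype difference on the log2(FPKM + 1) scale against the gene length implied by the FPKM steps (log axis), in CD44hi and in CD44lo, with 1 point per gene, the 44 members in red and all genes tested in gray. Over the members Spearman's rank correlation is 0.38 in CD44hi and -0.31 in CD44lo, and over all genes tested it is 0.27 and -0.33.

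The next comparison asked how the genes differed between the CD44hi and CD44lo fractions of each genotype. It rests on 1 CD44lo library per genotype, which the fit takes to vary like the CD44hi pairs. Within WT, 2 members were higher in CD44hi, 2 were lower and 40 did not pass, beside 15.4% higher and 10.7% lower of all genes tested. The members' median log2 difference was 0.13, beside 0.05 over all genes tested. Both CD44hi libraries were above the CD44lo library in 35 of 44 members and below it in 8, beside 48.3% and 34.9% of all genes tested. The small number of calls varied with the settings. Median-ratio scaling called 0 higher, beside 12.3% of all genes tested, and voom called 4, beside 16.2%. With 1 library left out, the members' median log2 difference was 0.12 to 0.13, beside 0.03 to 0.06 over all genes tested.

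Polr1b and Wdr12 were the WT genes higher in CD44hi. Polr1b had 26.8 FPKM in WT CD44lo, below the 36.0 and 32.7 FPKM of WT CD44hi (log2 difference 0.34, SE 0.0847, adjusted p = 0.0276). Wdr12 had 9.25 FPKM in WT CD44lo and 11.6 and 11.3 FPKM in WT CD44hi (0.28, adjusted p = 0.0469). The genes lower in CD44hi were Ddx10, at 45.0 FPKM in WT CD44lo (-0.50, SE 0.0868, adjusted p = 0.00841), and Tcof1, at 139 FPKM (-0.38, adjusted p = 0.0285). Ddx10 had the largest difference of any member within WT. No snoRNP gene and no chaperone passed within WT. The highest of these was Nhp2 at 0.34 (adjusted p = 0.0630), with Gnl3 at 0.30 (adjusted p = 0.0885) and Gar1 at 0.23 (adjusted p = 0.0811), and the lowest was Ncl at -0.20 (adjusted p = 0.192). Large-subunit factors were above CD44lo in both CD44hi libraries for 11 of 12 genes. Their log2 differences included 0.26 for Ebna1bp2, 0.24 for Rrp1b (adjusted p = 0.0505) and -0.02 for Noc3l, whose CD44hi libraries lay on either side of the CD44lo library.

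Within Dusp2KO, 15 members were higher in CD44hi, 1 was lower and 28 did not pass, beside 23.6% higher and 16.5% lower of all genes tested. The members' median was 0.18 beside 0.05 over all genes. Both CD44hi libraries were above the CD44lo library in 31 members and below it in 6, beside 51% and 40.4% of all genes tested. Rescaling to an equal total moved the median over all genes to 0.18 and that of the members to 0.32. The members stood above the median of all genes by 0.13 before and 0.14 after it, a gap that such rescaling could hardly change. That setting called 27 members higher, beside 32.5% of all genes tested. Median-ratio scaling called 7 of 44 and removal of the length trend called 8, beside 20.3% and 19.4% of all genes tested. Under both of the latter settings the members' share was not above that of all genes. With 1 library left out, the members' median log2 difference was 0.18 to 0.19, beside 0.04 to 0.05 over all genes tested. Spearman's rank correlation between length and this difference was 0.58 over the members and 0.34 over all genes tested. The Dusp2KO CD44lo library, shallowest and highest in mitochondrial share, is the sole baseline here.

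The 15 higher genes came from every role, with 3 polymerase I genes, 2 snoRNP genes, 2 chaperones, 5 small-subunit and 3 large-subunit factors. Utp20 was the highest, with 13.9 FPKM in Dusp2KO CD44lo and 27.0 and 27.1 FPKM in Dusp2KO CD44hi (0.91, SE 0.0919, adjusted p = 0.000760). Tsr1 followed, with 18.9 FPKM in CD44lo and 29.9 and 31.3 FPKM in CD44hi (0.67, adjusted p = 0.00249). Polr1a had 13.2 FPKM in CD44lo and 21.1 and 20.5 FPKM in CD44hi (0.62, adjusted p = 0.00242). In each of these the CD44hi pair was far above the CD44lo library. Heatr1 (0.59), Mybbp1a (0.52), Rrp12 (0.49), Ncl (0.41) and Rrp1b (0.40) were also higher. Ncl (305 FPKM in CD44lo) did not pass with the length trend removed (0.15, adjusted p = 0.361), and neither did Nop58 (35.0 FPKM in CD44lo), whose difference went from 0.28 to 0.00 (adjusted p = 0.973). Nob1 was the lower gene, with 44.8 FPKM in CD44lo and 37.2 and 34.1 FPKM in CD44hi (-0.32, adjusted p = 0.0284). The steps of both genotypes passed for Polr1b alone (0.34 in WT and 0.32 in Dusp2KO).

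**Figure D4:**
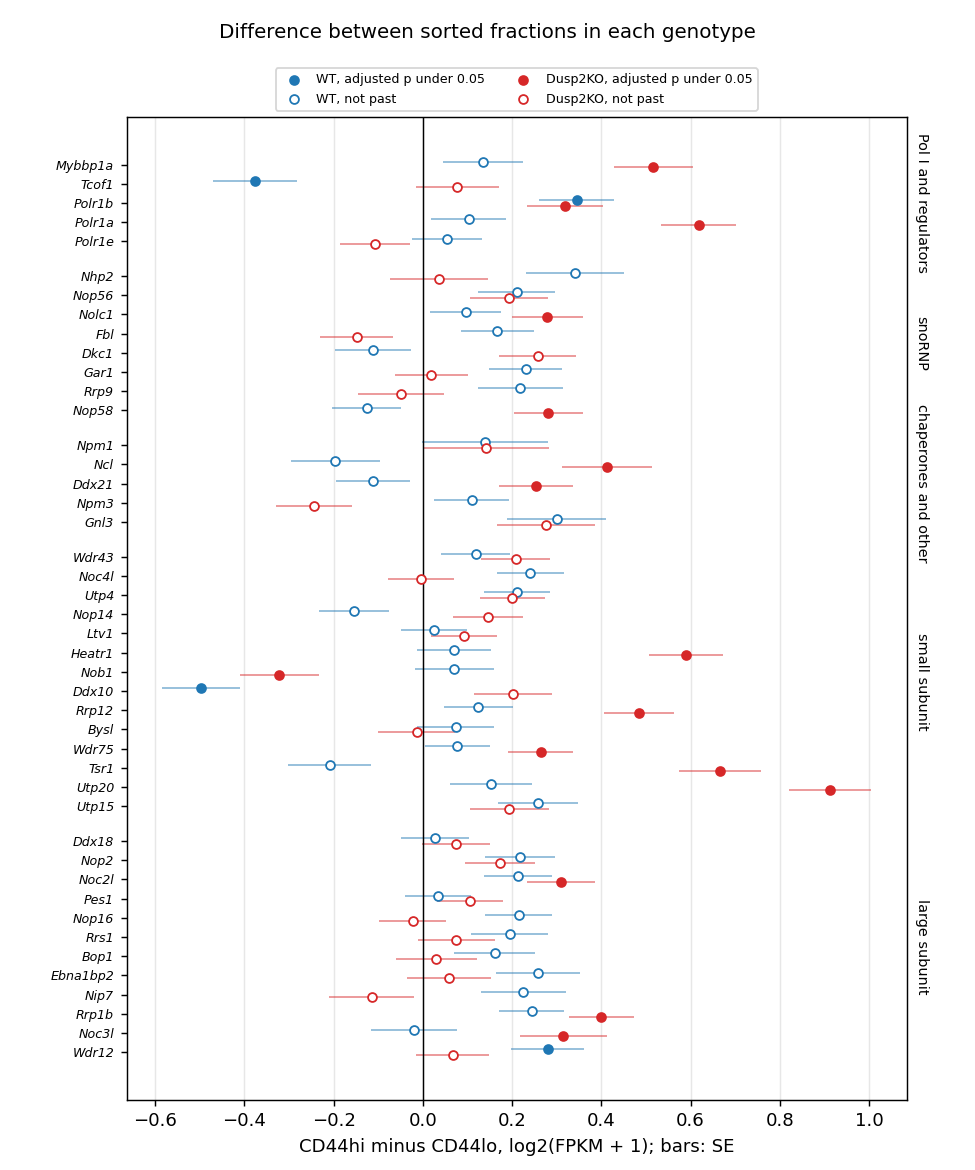
Difference between CD44hi (2 libraries) and CD44lo (1 library) for each of the 44 genes on the log2(FPKM + 1) scale, in WT and in Dusp2KO, with standard errors from the pooled fit. Utp20 at 0.91 and Tsr1 at 0.67 are the highest in Dusp2KO, and Ddx10 at -0.50 is the lowest in WT.

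Whether the step between fractions differed between genotypes was tested as an interaction. Each genotype had 1 CD44lo library, with no spread of its own, so the p-values below take both to vary like the CD44hi pairs and have no replicate check in CD44lo. It passed for 3 of 44 members (6.82%), all with a higher signed difference between CD44hi and CD44lo in Dusp2KO than in WT, beside 2.73% of all genes tested in that direction and 1.49% in the other. All 3 were small-subunit factors. Tsr1 had a step of -0.21 in WT and 0.67 in Dusp2KO, an interaction of 0.87 (SE 0.130, adjusted p = 0.0331). For Utp20 the steps were 0.15 and 0.91 (interaction 0.76, SE 0.130, adjusted p = 0.0403). Ddx10 had steps of -0.50 and 0.20 (interaction 0.70, SE 0.123, adjusted p = 0.0427). In all 3 the genotypes stood in opposite order in the fractions, with Dusp2KO higher in CD44hi and lower in CD44lo. The members' median interaction was 0.03, beside -0.01 over all genes tested, with 23 positive and 21 negative. The nearest others were Heatr1 (0.52, adjusted p = 0.0573), Polr1a (0.51, adjusted p = 0.0602) and Ncl (0.61, adjusted p = 0.0605). Spearman's rank correlation of the interaction with length was 0.47 over the members and 0.48 over all genes tested. With the length trend removed, Tsr1 (1.06, adjusted p = 0.0202) and Ddx10 (0.78, adjusted p = 0.0326) passed and Utp20 did not (0.49, adjusted p = 0.0642). With no filter or no variance trend 0 members passed by limma, beside 0.121% and 0.949% of all genes tested with a positive interaction. In these settings 22 and 15 members had an unadjusted limma p under 0.05, beside 3933 of 18122 and 2679 of 9691 genes tested. Voom called 5, beside 4.36% of all genes tested. With 1 CD44hi library left out, the members' median interaction was 0.01 to 0.06, beside -0.03 to 0.02 over all genes tested.

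The pathway was extended with 121 further genes, of which 116 were in the table at a mean of at least 1 FPKM. In CD44hi, 25 of the 116 rose in Dusp2KO (21.6%) and 5 fell (4.31%), with a median log2 difference of 0.07. These shares lay between those of the 44 genes and those of all genes tested for both directions. By role, 2 of 13 polymerase I genes rose and 1 fell, 2 of 12 snoRNP genes rose and 1 fell, 8 of 42 small-subunit factors rose and 1 fell, and 13 of 49 large-subunit factors rose and 2 fell.

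Naf1, an assembly factor of the box H/ACA particle of Dkc1, had 20.3 ± 0.838 FPKM (SD, n = 2) in WT CD44hi and 29.9 ± 0.106 FPKM (SD, n = 2) in Dusp2KO CD44hi. The log2 difference was 0.54 and passed the limma test (adjusted p = 0.00352). The subunits of RNA polymerase I differed in direction. Cd3eap, which encodes a subunit of the polymerase, rose from 15.8 and 17.6 FPKM to 23.3 and 23.5 FPKM (0.46, adjusted p = 0.00752), and Twistnb, another subunit, rose by 0.30 (adjusted p = 0.0244). Znrd1, a small subunit of the same enzyme, fell, with 32.0 and 34.0 FPKM in WT and 28.01 and 28.1 FPKM in Dusp2KO (-0.23, adjusted p = 0.0410). Ubtf, the factor that holds active ribosomal DNA open, was at -0.16 (adjusted p = 0.124).

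Esf1 had the largest rise of the 116, with 7.85 and 8.73 FPKM in WT and 14.1 and 15.2 FPKM in Dusp2KO (0.75, adjusted p = 0.00260), and Mphosph10, a protein of the early small-subunit particle, rose by 0.50 (adjusted p = 0.00372). Rrp36 (-0.25, adjusted p = 0.0360) fell in the same list, and Nol6 (-0.24, adjusted p = 0.0516) did not pass. Among large-subunit factors, Nol8 rose by 0.51 and Urb1 by 0.45 (adjusted p = 0.00586 and 0.00862). Eif6, which keeps the large subunit from joining too early, was lower (-0.23, adjusted p = 0.0485), as was Rrp1, a relative of Rrp1b (-0.25, adjusted p = 0.0466). Rrp1 and Rrp1b thus moved in opposite directions. Znhit3, an assembly factor of box C/D particles, rose by 0.28 (adjusted p = 0.0268). Nop53, a large-subunit factor counted here in the snoRNP list, fell, with 92.2 and 104 FPKM in WT and 80.0 and 74.6 FPKM in Dusp2KO (-0.34, adjusted p = 0.0275), and Pih1d1, an assembly factor, was at -0.22 (adjusted p = 0.0829).

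Between the fractions of WT, 13 of the 116 were higher in CD44hi (11.2%) and 7 lower (6.03%), and within Dusp2KO 26 were higher (22.4%) and 10 lower (8.62%). All 4 shares were below those of all genes tested, which were 15.4% and 10.7% in WT and 23.6% and 16.5% in Dusp2KO. Rrn3, the factor that brings the polymerase to its promoter, was higher in WT CD44hi (27.5 and 27.5 FPKM) than in WT CD44lo (21.5 FPKM), by 0.34 (adjusted p = 0.0171), and Nol11 was at 0.24 (adjusted p = 0.0598). Taf1b, a subunit of the promoter selectivity factor, and Ttf1, the terminator-binding factor, were lower, at -0.42 and -0.44 (adjusted p = 0.0214 and 0.0396). Among snoRNP genes Naf1 (0.45, adjusted p = 0.00828) and Snu13 (0.49, adjusted p = 0.0130) were higher, Nop53 was lower (-0.42, adjusted p = 0.0257), and Nufip1 did not pass (-0.10, adjusted p = 0.406). Of the small-subunit list Dimt1 (0.46) and Utp6 (0.25) were higher and Esf1 (-0.47) and Utp3 (-0.30) lower, with adjusted p-values from 0.0104 to 0.0456. Of the large-subunit list Mrto4 (0.37) and Ppan (0.33) were higher and Nol8 (-0.35) and Cebpz (-0.30) lower, with adjusted p-values from 0.0134 to 0.0334.

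Several members share their locus with other transcribed genes. In the RefSeq annotation of GRCm38.p6, 14 of the 44 overlap another coding or long noncoding gene and 7 hold small nucleolar RNA genes within their span, among them Ncl and Gnl3. Of the 14 members that rose in CD44hi, 4 overlap another gene and 5 hold small nucleolar RNA genes. Whether reads were counted by strand is not given in the sources used here, so reads of overlapping genes cannot be told apart in those members. Fbl and Npm1 are among the genes known to have processed pseudogenes, so their counts may be shared with near-identical copies.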

How the data were processed

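Libraries were bulk RNA-seq of total RNA extracted with Trizol, per the labels' protocols. The authors deposited 1 table of FPKM values for 18122 gene rows and 6 libraries. Per the submitters' processing notes, the tool was HISAT2 2.0.5, and 2 builds are listed with no role, mm39 and hg38. For the read counter, the annotation and strandedness, nothing is given in the sources used here.

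FPKM steps of all 16220 rows present in 2 or more libraries gave whole reads within 1e-06 reads (100.0%, against 0.15% of 2000 perturbed rows). Recovered reads gave depth, read shares, lengths and the voom alternative. The main test was limma 3.58.1 (R 4.3.3) on log2(FPKM + 1), with a variance trend, 1 coefficient per group and 9691 genes at a mean of at least 1 FPKM. P-values were two-sided and Benjamini-Hochberg adjusted over these genes, with a threshold of 0.05. The fit was tested on simulated data. A log2(FPKM + 1) difference understates the change of low genes. Replicate counts of both CD44hi pairs differed by more than sampling noise (chi-square per degree of freedom 31.2 in WT and 6.84 in Dusp2KO).

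Members and lists were chosen with earlier results of these data known. Library values are given, per role, for the 3 members with the smallest p between genotypes in CD44hi, the 2 with the largest and the 1 with the smallest difference between WT fractions, members called lower and members called in the interaction. Other pathway genes are named by list, up to 2 per direction of the CD44hi genotype and WT fraction comparisons. Promoter windows (RefSeq, GRCm38.p6) outside chromosome 18 matched 38 of 44 members, and their letters matched the annotated strand in 38 of 42 windows. Alternatives were a pseudocount of 0.1, no filter, a minimum of 5 FPKM, quantile, median-ratio and total scaling (to 1000000), removal of a loess length trend (span 0.5), no variance trend, voom, a replicate block and each library left out.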

Additional observations from a re-analysis of the deposited data

Results flagged for a closer look

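Tsr1, Utp20 and Ddx10 differed between the CD44 fractions to a different extent in the genotypes, by limma's interaction test. The difference between steps, Dusp2KO minus WT, was 0.87 for Tsr1, 0.76 for Utp20 and 0.70 for Ddx10 on the log2(FPKM + 1) scale. All 3 values rest on 1 CD44lo library per genotype, and the Dusp2KO one is the shallowest library.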

How the results depend on the processing

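No called member changed sign under any alternative run. For Dusp2KO against WT in CD44hi, members that rose (14) numbered 0 with no filter and 9 with no variance trend, and 2 to 22 with 1 library left out. The 1 that fell became 0 with no filter, quantile normalization or median-ratio scaling, and 0 to 2 with 1 library left out. Between WT fractions, the 2 higher members became 1 with no filter, quantile normalization or no variance trend, 0 under median-ratio scaling, 4 with voom, and 1 to 13 with 1 library left out. The 2 lower became 0 with no filter, and 1 to 3 with 1 library left out. Between Dusp2KO fractions, the 15 higher became 9 with no filter, 7 under median-ratio scaling, 27 on rescaled totals, 8 with the length trend removed, and 6 to 23 with 1 library left out. The 1 lower became 0 with no filter or on rescaled totals, 2 under median-ratio scaling, and 0 to 3 with 1 library left out. The 3 interaction calls became 0 with no filter or no variance trend, 6 at a minimum of 5 FPKM, 5 with quantile normalization or voom, 8 on rescaled totals, and 3 to 14 with 1 library left out, and interaction calls in the other direction numbered 0 to 5. In CD44lo, the 9 higher became 3 on rescaled totals and the 8 lower became 4 with the length trend removed. Rescaling also changed the whole-table split for Dusp2KO against WT in CD44hi, from 12.9% higher and 13.8% lower to 13.3% and 9.43%, and for the Dusp2KO fractions, from 23.6% and 16.5% to 32.5% and 10%. The cause of these changes was not tested. The share of all genes tested that passed also moved with other settings and with 1 library left out. The counts of members in this section therefore do not describe the members alone. No filter raised the number of genes tested from 9691 to 18122, and the unadjusted limma p-values changed as well. In CD44hi that of Ncl went from 0.00116 to 0.00646 and that of Rrp1b from 0.00427 to 0.00158.

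The replicate differences of the genotypes in CD44hi correlated at 0.02 over 9691 genes. With 1 such difference per genotype, this cannot decide whether libraries of the same replicate number were handled as pairs. With a replicate block, 17 members rose and 1 fell in CD44hi, beside 16.1% and 18.2% of all genes tested. The interaction called 8, all positive, beside 8.47% of all genes tested in that direction, against 2.73% in the main fit. The fraction steps called 3 higher and 2 lower in WT, beside 18.8% and 11.3% of all genes tested. Within Dusp2KO they called 15 higher and 1 lower, beside 27.1% and 18.1%. Comparisons of fractions gave no value without their own CD44lo library. With pairs in CD44hi and 1 library in CD44lo, the number of libraries rather than reads limits precision, since the lowest member value had 866 reads.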
